A study of Danio rerio with 4 samples.

Results

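The genes described here are the semaphorins, plexins, ephrins and Eph receptors of the zebrafish skull roof (calvaria), chosen by symbol alone as every gene whose name begins with sema, plxna, plxnb, plxnc, plxnd, efna, efnb, epha or ephb. The rule found 71 of the 39988 genes in the count tables: 30 semaphorins, 11 plexins, 13 ephrins and 17 Eph receptors. A further 1 gene with a symbol written in capitals, SEMA4F, was left out by the rule. The rule found no symbol beginning with efna4. No measured value was used to choose the genes, although results of these data were known when the set was proposed.

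Semaphorins are guidance ligands. The sema3 proteins are secreted and mostly signal through a neuropilin paired with an A-type plexin, while the other vertebrate semaphorins are held at the cell surface and many of them bind plexins directly. Ephrins are surface ligands read by Eph receptor tyrosine kinases on a neighbouring cell, with A-type ephrins anchored by a lipid and B-type ephrins spanning the membrane. In mammals, ephrin-B1 and EphA4 are known for keeping cell populations apart at the coronal suture, and changes in the human EFNB1 gene cause craniofrontonasal syndrome, in which that suture fuses early. The same families are known for sorting arteries from veins and for steering axons.

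Cells were captured from dissected calvaria of adult fish (22-25 mm long, 10 fish pooled per library) and of juvenile fish (9-11 mm long, 20 fish pooled per library), all labelled as the tubingen strain and all sorted as DAPI-negative, that is, with intact membranes. Adult 1 was depleted of ecad:YFP cells, which carry a reporter for epithelial cadherin. Adult 2 had no reporter gate. Juvenile 1 was depleted of ecad:YFP cells and juvenile 2 of sp7:GFP cells, which carry a reporter for osteoblasts. The juvenile stage has growing bone fronts and the adult stage has formed sutures. There were thus 2 libraries per stage, the gate on ecad:YFP occurs once at each stage, and the gate otherwise cannot be told apart from the stage.

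The tables held 6986539 and 7873717 UMIs (unique molecular identifiers, 1 per captured transcript) in adults 1 and 2, and 22012568 and 24854689 UMIs in juveniles 1 and 2. Cells with over 200 and under 2500 genes and under 25% mitochondrial UMIs were kept, which left 5066 of 5178 adult barcodes and 16245 of 16467 juvenile barcodes. A cell entered 1 of 8 classes when it had UMIs of at least 3 markers of that class and 3 times as many as of any other class; 2593 adult and 6372 juvenile cells did, 42.1% of all. Mesenchyme markers were not counted against osteoblasts. Cells of a class had 3035 to 58761 counts per 1000000 UMIs (CPM) from their own marker list. They had 0 to 2296 CPM from any other list, except that osteoblasts had 1632 to 3722 CPM from the mesenchyme list. The classes comprised 2596 mesenchyme, 312 osteoblast, 112 endothelial, 80 mural (vascular smooth muscle), 296 skin, 3563 neuron, 357 glia and 1649 immune cells. Hemoglobin genes took 4.53% of UMIs in juvenile 1 and at most 0.107% in the other libraries. Between 14 and 101 cell barcodes were shared by any pair of libraries, at most 1.40% of the smaller one, and were kept. A pooled library was the replicate in every test, so p-values cover the spread between pools. Where values of both libraries of a stage are given, number 1 precedes number 2.

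The 71 genes held 41725 UMIs in all kept cells and 20684 in the gated cells. Of these genes, 66 had at least 20 UMIs in gated cells, 5 had fewer (epha8, ephb1, plxnd1, sema4ga and sema4gb), and epha8 had none in any cell. Mesenchyme and neurons each had UMIs of 69 genes, skin of 60, immune cells of 59, glia of 57, osteoblasts of 53, endothelial cells of 42 and mural cells of 39, and 18 genes were found in all 8 classes. These numbers move with the cells and UMIs per class. By pooled level, 21 of the 66 genes were highest in neurons, 16 in glia, 12 in endothelial cells, 6 in mural cells, 5 in mesenchyme, 3 in skin, 3 in immune cells and none in osteoblasts. Of these top levels, 4 of the 12 in endothelial cells, 5 of the 6 in mural cells and 1 of the 16 in glia rest on fewer than 5 UMIs. Pooled levels also mix class with stage and gate. Neurons had 2306008 and 4377793 UMIs in juveniles, against 214952 and 19631 in adults. Mesenchyme had 1520772 and 1086706 UMIs in juveniles, and 2614813 and 3106047 in adults. Within a library the order of classes can therefore differ from the pooled one. Neurons were the highest class for 5 plexins of the A and B types. The 5 genes highest in mesenchyme were the secreted semaphorins sema3aa, sema3c, sema3d and sema3e and the receptor plxnb2a.

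**Figure D1:**
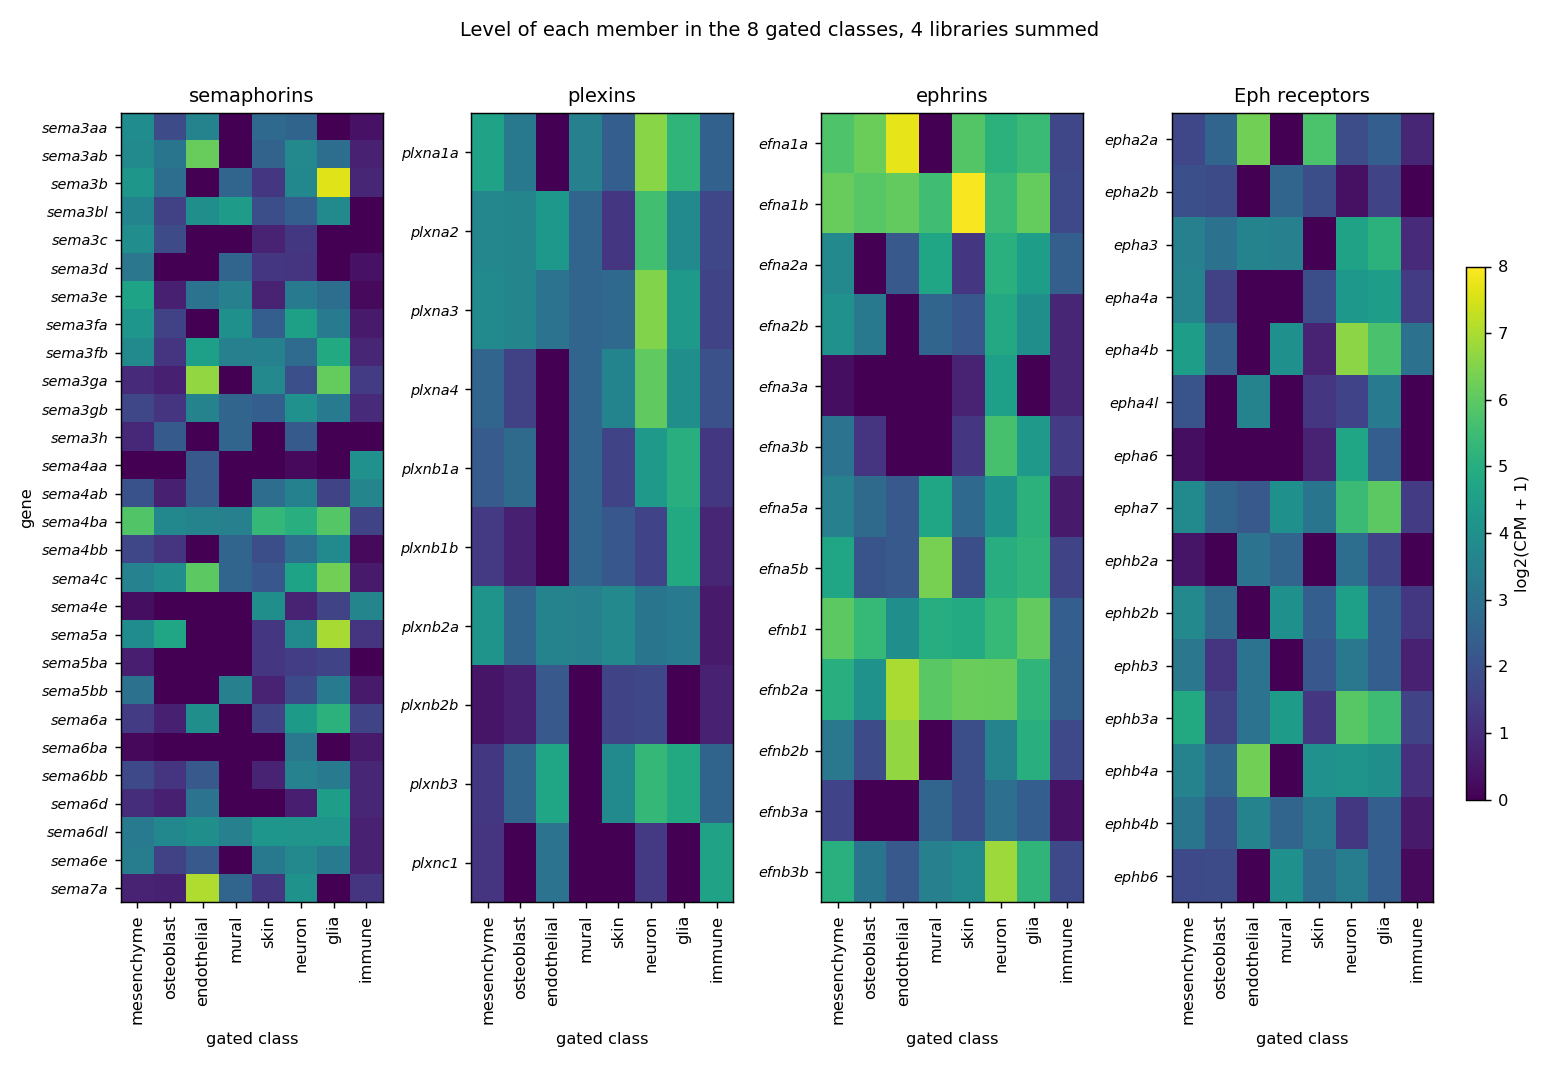
Level of the 66 genes with at least 20 UMIs in gated cells, as log2(CPM + 1) over the 4 libraries summed, with genes down the page by family and the 8 gated classes across. Bright cells for plxna1a to plxna4 stand in the neuron column, for sema7a, sema3ga, efna1a and efnb2b in the endothelial column, for sema3b and sema5a in the glia column and for efna1b in the skin column, and the immune column is dark apart from plxnc1 and a few sema4 genes.

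The levels were also summed over each family. Semaphorins summed to 627 ± 176 CPM in glia (SD, n = 3 libraries), 489 ± 143 CPM in endothelial cells (n = 4) and 259 ± 32.2 CPM in mesenchyme (n = 4), against 108 ± 42.7 CPM in osteoblasts (n = 3). Plexins summed to 397 ± 154 CPM in neurons and 195 ± 41.0 CPM in glia, against 85.2 ± 20.7 CPM in mesenchyme. The neuron sums of all 4 libraries (265 and 611 CPM in adults, 309 and 401 CPM in juveniles) lay above every mesenchyme sum (81.1 and 63.1 CPM in adults, 83.5 and 113 CPM in juveniles).

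Ephrins summed to 548 ± 181 CPM in endothelial cells, 417 ± 172 CPM in skin, 396 ± 103 CPM in glia, 384 ± 195 CPM in neurons, 338 ± 75.1 CPM in mesenchyme and 246 ± 83.7 CPM in osteoblasts, with overlapping libraries, and to 37.8 ± 25.1 CPM in immune cells. Eph receptors summed to 379 ± 282 CPM in neurons, 255 ± 54.1 CPM in glia, 213 ± 35.2 CPM in endothelial cells and 151 ± 72.9 CPM in mesenchyme, against 51.3 ± 14.4 CPM in osteoblasts. The wide neuron spread included 102 CPM in adult 1 and 764 CPM in adult 2, where only 53 and 14 cells passed the neuron gate. All 71 genes together took 833 ± 174 CPM in mesenchyme and 462 ± 136 CPM in osteoblasts, and 157 ± 26.6 CPM in immune cells. These sums are descriptions and were not tested.

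**Figure D2:**
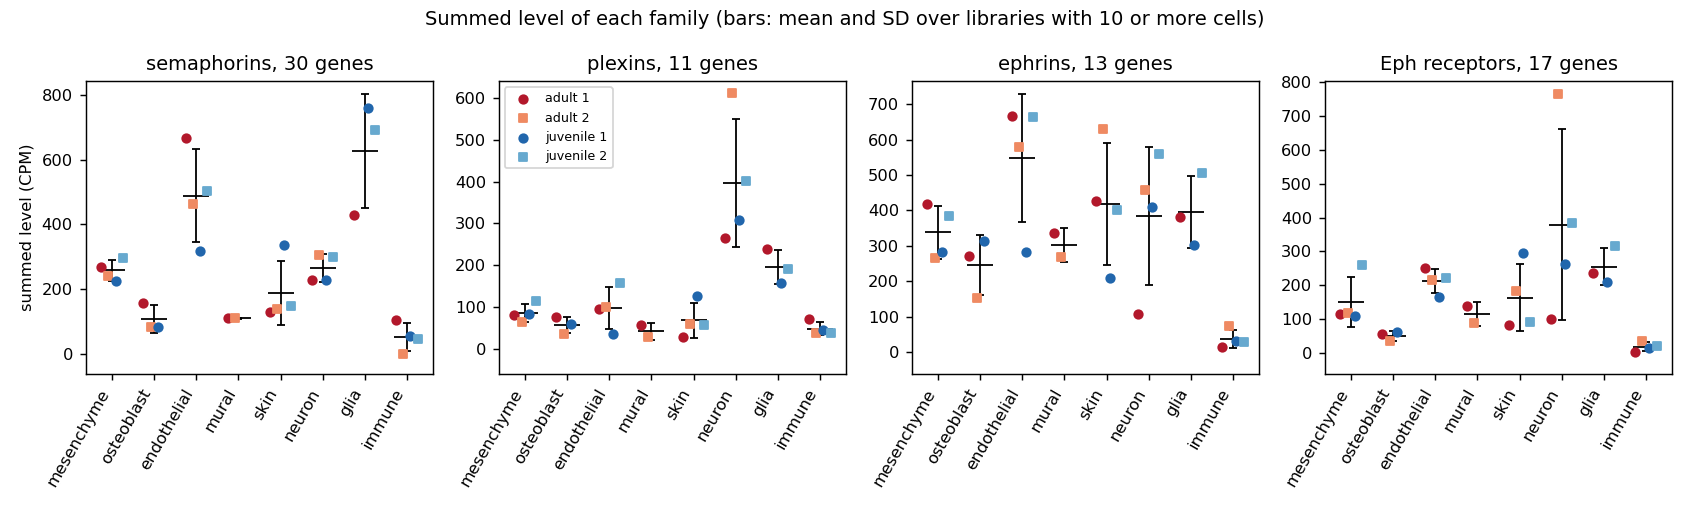
Summed level (CPM) of each of the 4 families per library and gated class. Points are libraries with at least 10 cells of the class, and lines with bars are their mean and SD. Plexin sums of the 4 neuron points lie above those of all other classes, semaphorin sums are high in glia and endothelial cells, and immune points lie near the bottom of every panel.

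Among the B-type ephrins, efnb1 was broad across connective tissue. Its level in mesenchyme was 107 and 32.5 CPM in adults 1 and 2, and 40.8 and 66.3 CPM in juveniles 1 and 2. The other gated cells of the same libraries had 26.6 and 20.2 CPM in adults and 20.8 and 30.4 CPM in juveniles, so that mesenchyme was higher than this mix in each library. The mix differed between libraries. Its largest class was immune cells in adult 1 (665253 UMIs), osteoblasts in adult 2 (831602) and neurons in the juveniles (2306008 and 4377793). A level above the mix is therefore not a level above each class. Osteoblasts had 84.7, 15.6 and 46.2 CPM in adult 1, adult 2 and juvenile 1, which followed the order of the mesenchyme values in the adults. The pooled efnb1 level of 61.8 CPM in mesenchyme (exact Poisson 95% interval 56.6 to 67.4, counting error only) was within the interval of the 66.3 CPM in glia (45.0 to 94.05), above the 39.8 CPM in osteoblasts (30.5 to 51.0) and above the 40.2 CPM in neurons (35.6 to 45.2). The gap to osteoblasts did not hold between libraries. In juvenile 1 osteoblasts had more than mesenchyme, and the edgeR test of the 2 classes did not pass (log2 difference 0.04, adjusted p = 0.997). Cells with at least 1000 UMIs were also thinned to 1000 UMIs each. This left out 181 of 2596 mesenchyme cells and 116 of 1649 immune cells as shallower. Of the thinned cells, 6.13% in mesenchyme had an efnb1 UMI, against 0.522% of immune cells, the class taken as the level of free RNA. Before thinning the shares of all cells were 16.1% and 1.52%, at median depths of 2864 and 3085 UMIs per cell.

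Both genes of the second B-type pair had their highest pooled level in endothelial cells, 124.7 CPM for efnb2a and 102.7 CPM for efnb2b. efnb2a, a copy of the ephrin known as an arterial marker, had 36.7 and 29.6 CPM in adult mesenchyme and 21.0 and 40.5 CPM in juvenile mesenchyme, a range the endothelial values of 208 and 82.9 CPM in adults and 59.0 and 126 CPM in juveniles did not touch. The edgeR test of mesenchyme against endothelial cells did not pass for efnb2a (log2 difference -1.17, adjusted p = 0.154). efnb2b had 125 and 66.3 CPM in adult endothelial cells and 47.2 and 252 CPM in juvenile ones, against at most 17.5 CPM in any mesenchyme library. Here efnb2b was the more restricted copy, with 8.28 CPM in pooled mesenchyme and 2.57 CPM in osteoblasts. efnb3b had 40.9 and 18.7 CPM in adult mesenchyme and 30.9 and 53.4 CPM in juvenile mesenchyme, and its pooled level of 113 CPM in neurons was its highest.

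Of the A-type ephrins, efna1b had 96.4 and 67.6 CPM in adult mesenchyme, both above the 55.9 and 34.0 CPM of juvenile mesenchyme. Its paralog efna1a had 51.2 and 47.6 CPM in adult mesenchyme, below the 65.1 and 69.0 CPM of juvenile mesenchyme. Neither stage difference passed the edgeR test between stages (efna1b adjusted p = 0.454, efna1a adjusted p = 0.944). For efna1a the log2 difference in that test was only -0.18. efna5b had 31.7 and 22.2 CPM in adult mesenchyme and 14.5 and 35.9 CPM in juvenile mesenchyme, and efna2a stood at 12.7 CPM in pooled mesenchyme with no UMI in the osteoblast cells, so that mesenchyme was at least 6.61-fold higher at a floor of 3 counts over the class.

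The secreted semaphorins include the genes most concentrated in mesenchyme. sema3e, a ligand that can bind plexin D1 without a neuropilin in mouse vessels, had 29.4 and 13.8 CPM in adult mesenchyme and 28.9 and 33.1 CPM in juvenile mesenchyme. In the other gated cells it had 0.649 and 1.56 CPM in adults and 2.50 and 6.12 CPM in juveniles, and mesenchyme was the highest class in all 4 libraries. Its receptor gene plxnd1 had 6 UMIs in all gated cells, 3 of them endothelial, so no level can be read for it. sema3c, sema3d and sema5bb, the last not a sema3 gene, were each highest in mesenchyme among the 8 classes in 3 libraries. By pooled level sema5bb had 6.96 CPM in mesenchyme, below 10.2 CPM in mural cells, on few UMIs, and 8.55 CPM in glia. Chondrocyte-gated cells, outside these classes, had more sema3d and sema5bb than mesenchyme (13.9 and 15.9 CPM). sema3c had 11.9 and 22.5 CPM in adult mesenchyme and 7.89 and 4.60 CPM in juvenile mesenchyme, against 2.57 CPM in pooled osteoblasts and 1.45 CPM in pooled neurons. sema3d had 2.68 and 10.3 CPM in adult mesenchyme and 7.23 and 15.6 CPM in juvenile mesenchyme, and no UMI in osteoblasts, which makes it at least 4.18-fold higher in mesenchyme.

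The other sema3 genes were spread more widely. sema3aa had 18.7 and 11.9 CPM in adult mesenchyme and 5.92 and 18.4 CPM in juvenile mesenchyme, while its paralog sema3ab, at 13.2 CPM in pooled mesenchyme, was highest in endothelial cells at 69.7 CPM. sema3fa stood at 17.5 CPM in pooled mesenchyme and 22.3 CPM in neurons, with overlapping intervals (14.8 to 20.6 and 18.9 to 26.1). sema3bl, sema3fb, sema3gb and sema3ga had 11.3, 12.8, 2.28 and 0.961 CPM in pooled mesenchyme. Of the surface-held semaphorins, sema4ba, whose family members signal through B-type plexins, had 75.0 and 47.3 CPM in adult mesenchyme and 51.9 and 37.7 CPM in juvenile mesenchyme, against 12.97 and 18.7 CPM in the other gated cells of the adults and 17.5 and 22.5 CPM in those of the juveniles. Mesenchyme was higher than these summed cells in each library. By pooled level glia came first for sema4ba, with 57.7 CPM against 55.6 CPM in mesenchyme.

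On the receptor side of mesenchyme, ephb3a had 33.3 and 19.6 CPM in adults and 21.7 and 49.7 CPM in juveniles, with 1.92 CPM in pooled osteoblasts. A second copy listed as ephb3 had 0.382 and 7.73 CPM in adult mesenchyme and 5.26 and 31.3 CPM in juvenile mesenchyme, a spread set by juvenile 2. epha4b, a copy of the EphA4 gene named above, had 15.3 and 18.4 CPM in adult mesenchyme, below the 23.0 and 37.7 CPM of juvenile mesenchyme, and no UMI in the endothelial cells. The stage difference of epha4b did not pass (edgeR adjusted p = 0.800). Its paralog epha4a had 9.56 and 12.9 CPM in adult mesenchyme and 7.89 and 13.8 CPM in juvenile mesenchyme, which overlapped. ephb2b, ephb4a and ephb4b had 12.7, 11.0 and 7.56 CPM in pooled mesenchyme, and ephb2a 0.36 CPM.

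The A-type plexins had lower pooled levels in mesenchyme than in neurons. plxna1a had 28.7 and 20.3 CPM in adult mesenchyme and 17.1 and 30.4 CPM in juvenile mesenchyme. plxna2, plxna3 and plxna4 had 11.9, 13.1 and 5.04 CPM in pooled mesenchyme. plxnb2a had 14.5 and 11.9 CPM in adult mesenchyme, below the 26.3 and 21.2 CPM of juvenile mesenchyme, and was the plexin whose pooled level was highest in mesenchyme (16.6 CPM), ahead of skin (12.6 CPM) by less than the counting intervals of both. The stage difference of plxnb2a did not pass (edgeR adjusted p = 0.746).

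Each class was tested against the others on UMIs summed per library and class (edgeR quasi-likelihood test with Benjamini-Hochberg adjustment, library as a block, 28 sums). The filter on low counts left 29 of the 71 genes, and a gene could pass it through the class in which it was high. The contrast set a class against the mean of the log levels of the other 7, which is pulled down wherever a class has no UMI, so the counts are given beside those of a second fit against the other gated cells summed per library. The second fit was filtered for each class on its own, so the genes tested differ between classes. There too a gene could pass the filter through the class in which it was high. The summed cells are a different mix of classes in each library. Over all genes tested, the median log2 difference in the first fit ran between -0.58 in mural cells and 0.59 in neurons, so that a class is not centred on 0.

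In mesenchyme, 13 of the 29 tested genes were higher and none was lower, where 18.3% of all 7447 genes tested were called higher and 0.591% lower. DESeq2 called 8 higher and 3 lower, beside 987 and 639 of the 7447 genes. The count of higher genes was 24 of 43 tested without adult 1, beside 16.4% of all genes, and 21 of 49 tested without adult 2, beside 13.5%. Against the other gated cells summed, 12 of 43 genes were higher and 4 lower, with 9.49% and 8.63% called over all genes. The 12 were sema3e (log2 difference 3.63, adjusted p = 0.00353), sema3aa, sema3bl, sema3fa, sema3fb, sema4ba (1.75, adjusted p = 0.0154), sema6e, plxnb2a (2.18, adjusted p = 0.0077), efna2b, efna5b, efnb1 (1.43, adjusted p = 0.028) and ephb4b. The 4 lower ones were sema7a, sema3ga, plxnb3 and plxna4. efnb1, sema4ba and efna5b were called higher in both fits. The other 10 of the 13 (ephb2b, ephb3a, epha4b, efna1a, efna2a, efnb3b, plxna1a, sema3ab, sema3b and sema5a) did not pass in the second fit, with adjusted p between 0.0948 and 0.999.

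Against osteoblasts alone, 4 of the 29 genes were higher in mesenchyme and 0 were lower, beside 4.77% and 2.56% of all genes. They were ephb3a (log2 difference 3.32, SE 0.74, adjusted p = 0.00136), efna5b (2.43, SE 0.74, adjusted p = 0.0286), sema4ba (1.83, SE 0.57, adjusted p = 0.0370) and efna2a. The SE is approximate, taken from the size of the difference and its F statistic. efnb1 and efna1b did not pass. Without adult 2, 1 of 49 genes was called higher, beside 167 of all 12422. Without juvenile 1, 2 of 28 were, beside 158 of 6599. The sema4ba call was lost without juvenile 1 (adjusted p = 0.242), adult 1 (0.0807) or adult 2 (0.305). These 2 classes were compared over 3 libraries of osteoblasts, since juvenile 2, sorted against sp7:GFP, held 1 such cell. In the reverse direction sema5a had 34.9 and 25.3 CPM in adult osteoblasts and 15.4 CPM in juvenile 1, against 31.0, 2.25 and 7.89 CPM in mesenchyme of the same libraries, and it did not pass (adjusted p = 0.113).

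In the class fit, osteoblasts had 3 genes higher (efnb1, efna1a and sema5a) and 1 lower (efna2a), where 12.2% and 1.21% of all genes were called. None of the 3 held against the other gated cells summed, where 0 of 38 genes were higher and 3 were lower (efna2a, sema3e and ephb3a) beside 3.46% and 4.91% of all genes. For efna1a the osteoblast levels were 49.8, 40.9 and 185 CPM in adult 1, adult 2 and juvenile 1, so that the last library stood apart. Without juvenile 1, 1 of 28 genes was called higher in osteoblasts, beside 641 of all 6599.

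Endothelial cells, few in number with 35 and 31 in adults and 30 and 16 in juveniles, had higher levels of several guidance genes than the other gated cells summed. sema7a, a lipid-anchored semaphorin, had 219 and 99.4 CPM in adult endothelial cells and 35.4 and 189 CPM in juvenile ones, against 4.43 and 1.15 CPM in the other gated cells of adults and 7.69 and 5.48 CPM in those of juveniles. sema3ga, whose mammalian relative SEMA3G is known from vessels, had 135.5 and 82.9 CPM in adult endothelial cells and 94.4 and 63.1 CPM in juvenile ones, against 1.72 and 2.08 CPM in the other gated cells of adults and 3.62 and 4.88 CPM in those of juveniles. The endothelial values of both genes lay above all values of these summed cells. Single classes came closer, since sema3ga had 68.4 CPM in pooled glia, against 103 CPM in pooled endothelial cells, and sema7a had 74.4 CPM in neurons of adult 1 and 84.1 CPM, on 2 UMIs, in skin of juvenile 1.

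The receptors ephb4a, a copy of the venous partner of ephrin-B2, and epha2a were high in the same cells as efnb2a and efnb2b. ephb4a had 93.8 and 116 CPM in adult endothelial cells and 59.0 and 0 CPM in juvenile ones, the last on 16 cells. epha2a had 125 and 49.7 CPM in adult endothelial cells and 59.0 and 31.5 CPM in juvenile ones, against 2.28 CPM in pooled mesenchyme. efna1a had 229 and 331 CPM in adult endothelial cells and 94.4 and 189 CPM in juvenile ones. Thinning to 1000 UMIs left out 18 of 112 endothelial cells as shallower. Of the rest, 20.2% had an efna1a UMI and 11.7% a sema7a UMI, against 0.261% and 0.130% of immune cells. Arterial and venous endothelial cells were not separated.

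Of the 29 tested genes, 9 were higher in endothelial cells and none lower, where 7.94% and 2.03% of all genes were: sema7a (log2 difference 5.52, SE 0.65, adjusted p = 2.8e-09), sema3ga (4.81, SE 0.65, adjusted p = 7.7e-08), efnb2b (4.54, SE 0.56, adjusted p = 7.4e-09), efna1a (3.40, SE 0.60, adjusted p = 2.3e-05), epha2a, sema3ab, ephb4a, sema4c and efnb2a. Against the other gated cells summed, 6 of 43 were higher and 4 lower, beside 3.34% and 9.05% of all genes. The 6 were sema3ga, sema7a, efnb2b, epha2a, ephb4a and sema3ab, while efna1a (log2 difference 1.55, adjusted p = 0.0543), efnb2a and sema4c no longer passed. Mesenchyme against endothelial cells gave 8 genes higher and 8 lower, beside 9.64% and 5.53% of all genes. Higher were sema4ba, ephb3a, efnb1, efnb3b and efna5b, together with plxna1a, epha4b and ephb2b, which had no endothelial UMI and were at least 2.15-fold, 1.89-fold and 1.16-fold higher at that depth. Lower were sema7a, sema3ga, epha2a, plxnb3, efnb2b, ephb4a, sema3ab and sema4c. The 8 lower calls held with DESeq2 and with library totals as the scaling, but most higher ones did not. DESeq2 made 3 of the 8 higher calls (epha4b, plxna1a and sema4ba), beside 5.85% of all genes higher and 8.61% lower. Library totals made 2 (epha4b and plxna1a), beside 5.32% and 10.2%, with a median log2 difference over all genes of -0.19, against 0.58 in the first scaling. Without juvenile 1, 9 of the 16 calls were made, and the efnb1 call was lost (adjusted p = 0.126).

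Mural cells, the contractile cells of the vessel wall, had 14 and 59 cells in the adults and were tested on those 2 libraries. efna5b had 168 and 69.0 CPM in them and was the 1 gene called higher, beside 2.77% of all genes higher and 0.0806% lower (log2 difference 3.68, adjusted p = 0.000304). That call did not hold against the other gated cells summed (1.86, adjusted p = 0.188; in that fit 0.674% of all genes were higher and 2.88% lower), and without adult 2 0 genes were called. efna1a had no UMI in the 80 mural cells, which places endothelial cells at least 13.4-fold higher.

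In skin epithelium the ephrin efna1b and the receptor epha2a were high together. efna1b had 269.5 and 278 CPM in adult skin cells and 126 and 235 CPM in juvenile ones, against 73.3 and 66.6 CPM in the other gated cells of adults and 49.3 and 15.8 CPM in those of juveniles, and skin was the highest class in all 4 libraries. epha2a had 55.8 and 149 CPM in adult skin cells and 42.1 and 33.8 CPM in juvenile ones, against 2.24 to 4.94 CPM in the other cells. The pooled epha2a level was 51.8 CPM in skin, below the 77.0 CPM in endothelial cells. Skin of juvenile 1 held 23769 UMIs, so the values of both genes there rest on a few UMIs. Thinning left out 42 of 296 skin cells as shallower, and 18.9% of the rest had an efna1b UMI, against 0.326% of immune cells. Skin cells numbered 23 and 42 in adults and 17 and 214 in juveniles, so most came from the juvenile library not depleted of ecad:YFP.

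Of the tested genes, 6 were higher in skin and 2 lower, beside 11.8% and 3.33% of all genes, with efna1b at a log2 difference of 2.91 (SE 0.39, adjusted p = 2.1e-08) and epha2a at 4.46 (adjusted p = 1.8e-09). The others higher were efna1a, efnb2a, sema6dl and sema4ba, and the lower ones ephb3a and plxna2. Against the other gated cells summed, efna1b (1.99, adjusted p = 0.0448) and epha2a (3.99, adjusted p = 5.9e-06) were the 2 of 41 genes still higher and 10 were lower, beside 3.94% and 8.4% of all genes. Without adult 2, 3 of 49 genes were called higher, beside 953 of all 12422.

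Neurons carried the plexins of the A type, the signalling receptors for sema3 ligands. plxna3 had 37.2 and 255 CPM in adult neurons and 71.1 and 100.2 CPM in juvenile neurons, against 8.63 and 8.92 CPM in the other gated cells of adults and 9.29 and 8.08 CPM in those of juveniles. plxna4 had 23.3 and 102 CPM in adult neurons and 48.6 and 76.5 CPM in juvenile neurons, against 2.28 to 6.85 CPM in the other cells. plxna1a had 23.3 and 102 CPM in adult neurons and 82.8 and 104 CPM in juvenile neurons, and in adult 1 this was close to the 21.3 CPM of the other cells. Adult 1 was the lowest neuron library for each of them, and adult 2 rests on 2 to 5 UMIs a gene.

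Of the Eph receptors, epha4b had 13.96 and 255 CPM in adult neurons and 82.0 and 107 CPM in juvenile neurons, against 10.7 to 14.9 CPM in the other cells. ephb3a stood at 59.6 CPM in pooled neurons, epha7 at 43.1 CPM, below its 62.0 CPM in pooled glia, and ephb2b at 21.7 CPM. epha6 had 178 of its 183 gated UMIs in neurons, and the ephrin efna3a 153 of its 161. Thinning left out 1362 of 3563 neurons as shallower, and 8.22% of the rest had a plxna1a UMI, against 0.391% of immune cells.

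In the class fit 12 of 29 genes were higher in neurons and none lower, beside 33.7% and 12.2% of all genes, among them plxna4 (log2 difference 3.46, SE 0.52, adjusted p = 2.9e-07), epha4b (3.45, SE 0.48, adjusted p = 3.7e-08), plxna1a (3.12, SE 0.49, adjusted p = 6.2e-07) and plxna3 (2.84, SE 0.41, adjusted p = 7.1e-08). That share is close to the share over all genes. Against the other gated cells summed, 9 of 48 were higher and 12 lower, beside 15.2% and 28.4% of all genes. The 9 were plxna2, plxna3, plxna4, plxnb1a, plxnb3, sema6a, sema7a, efna3b and epha4b, while plxna1a (1.03, adjusted p = 0.0888), epha7 (0.86, adjusted p = 0.122), ephb2b (0.42, adjusted p = 0.515), ephb3a (0.30, adjusted p = 0.666), efna2a and efnb3b no longer passed. Mesenchyme against neurons gave 3 genes higher (efna1a, sema4ba and efnb1) and 5 lower (plxna2, plxna3, plxna4, plxnb3 and sema7a), beside 20.7% and 26.2% of all genes. The 5 lower calls held with DESeq2 and with library totals, and none of the 3 higher calls did. DESeq2 called 0 higher and 7 lower, beside 16.2% and 42.3% of all genes, and library totals 0 higher and 8 lower, beside 15.9% and 49.5%, with medians over all genes of -1.05 and -1.15, against -0.37 in the first scaling. Without adult 1, 10 of 43 tested genes were higher and 7 lower, beside 2406 and 2339 of all 11360 genes. Without adult 2 these were 10 and 8 of 49, beside 1875 and 2840 of 12422. Without juvenile 1 they were 1 and 4 of 28, beside 1153 and 1574 of 6599. Without juvenile 2 they were 1 and 2 of 23, beside 1038 and 1079 of 5515.

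Glia carried semaphorins. sema3b had 95.1 CPM in adult 1 glia on 11 cells, and 206.5 and 190 CPM in juvenile glia, against 25.4, 4.14 and 8.04 CPM in the other gated cells of those libraries. sema5a, a semaphorin with thrombospondin repeats, had 47.5 CPM in adult 1 glia and 136 and 121 CPM in juvenile glia, against 23.7, 6.29 and 9.06 CPM in the other cells. sema4c had 0 CPM in adult 1 glia and 75.5 and 84.9 CPM in juvenile glia. Thinning left out 167 of 357 glia as shallower, and 15.3% of the rest had a sema3b UMI, against 0.130% of immune cells.

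In glia 8 of 29 genes were higher and none lower, beside 11.6% and 3.32% of all genes: sema3b (log2 difference 5.58, SE 0.61, adjusted p = 4.1e-10), sema5a (4.97, SE 0.70, adjusted p = 2.0e-07), sema3ga, sema4c, epha4b, epha7, ephb3a and efna5a. Against the other gated cells summed, 5 of 45 were higher and 0 lower, beside 4.67% and 6.7%: sema3b, sema3ga, plxnb1b, sema5a and sema4c. All 5 but plxnb1b, which did not enter the first fit, were called in both fits, while epha4b, epha7, ephb3a and efna5a were called in the first alone. Without juvenile 1, 5 of 28 genes were called higher in the class fit, beside 558 of all 6599. Without juvenile 2, 3 of 23 were, beside 406 of 5515.

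Immune cells held little of these families. In the class fit 0 of 29 genes were higher and 12 lower, beside 17.8% and 11.8% of all genes, and 13 were under an unadjusted p of 0.05. DESeq2 called 0 higher and 23 lower, beside 828 and 2145 of all 7447 genes. Without adult 1, 1 of 43 genes was called higher, beside 1587 of all 11360. Without adult 2, 2 of 49 were, beside 2501 of 12422. Against the other gated cells summed, 40 of 44 genes were lower and 3 higher, beside 27.6% and 13% of all genes. The 3 were plxnc1 (log2 difference 4.83, adjusted p = 1.1e-17), sema4e and sema4ab. plxnc1, the receptor that binds semaphorin 7A in mammals, had 45.1 and 37.0 CPM in adult immune cells and 23.1 and 19.2 CPM in juvenile ones, against 0.286 to 1.75 CPM in the other cells, and immune cells were its highest class in all 4 libraries. sema4aa had 46.6 and 0 CPM in adult immune cells, the second on 15 cells, and 17.7 and 7.75 CPM in juvenile ones. It had 96 UMIs in immune cells and none in mesenchyme, which places it at least 43.2-fold higher in immune cells.

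**Figure D3:**
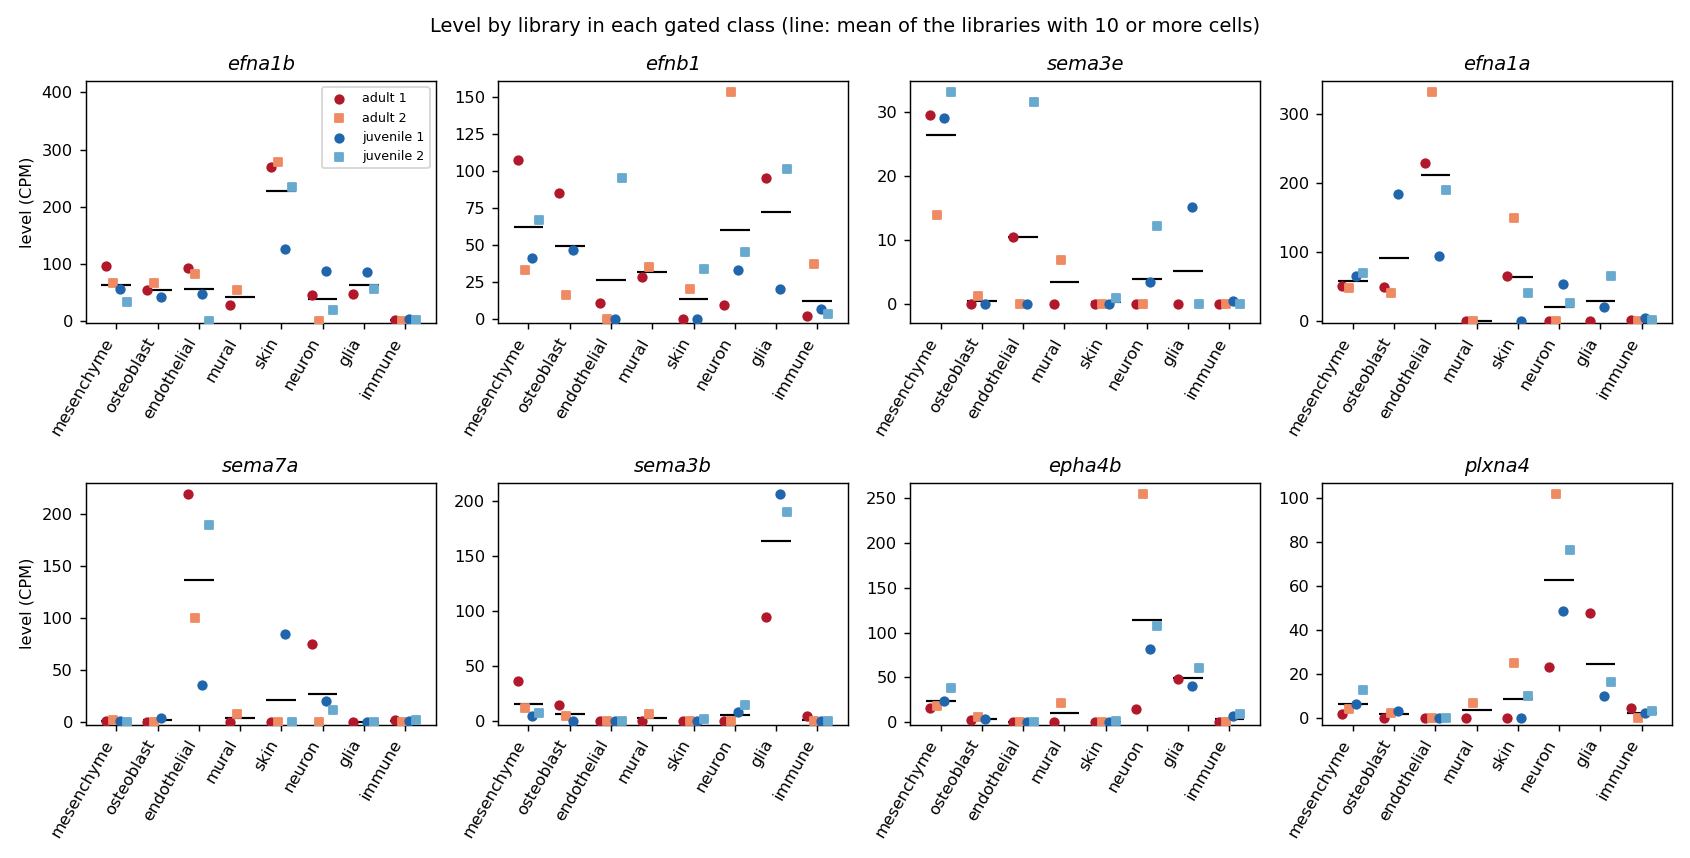
Level (CPM) of 8 genes in each gated class, 1 point per library with at least 10 cells of the class and a line at their mean. The 4 skin points of efna1b and the 3 glia points of sema3b lie above all others in their panels, the mesenchyme points of sema3e and the endothelial points of sema7a lie high with some overlap, and efnb1 and efna1a overlap between several classes.

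Within mesenchyme, cells were further gated by genes of the suture and its surroundings: dermal (pah and partners, 1016 cells), mid-suture (grem1a, nog2, angptl genes and partners, 266 cells), bone-edge (six2a, hyal4, fli1a and partners, 54 cells) and meningeal (crhbp and partners, 73 cells). Dermal cells made up 60.1% and 20.0% of mesenchyme in adults 1 and 2 and 52.9% and 37.6% in juveniles 1 and 2, and mid-suture cells 8.86% and 14.2% in adults and 4.77% and 7.64% in juveniles. Any mesenchyme total therefore mixes these cells in different shares from library to library.

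Mid-suture against bone-edge cells was too shallow to compare. The test (edgeR) called 0 of 883 genes and none of the 71 genes passed its filter. With no filter 0 of the 66 members were called, beside 0.342% of 22250 genes, and 7 members were under an unadjusted p of 0.05. DESeq2 called 13 genes of the 883, none of the 71. The pooled efnb1 level was 45.8 CPM in mid-suture cells (interval 33.2 to 61.7) and 84.2 CPM in bone-edge cells (46.1 to 141), and for epha4b 21.3 CPM (13.02 to 32.9) and 24.1 CPM (6.56 to 61.6). Neither difference was detectable at this depth. sema3e had 11.7 CPM in mid-suture, 18.1 CPM in bone-edge and 105 CPM in meningeal cells, the last on 21 UMIs from 73 cells.

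Dermal cells were compared with the mid-suture, bone-edge and meningeal cells summed per library, a contrast added after the shallow result was seen. Of 16 tested genes 1 was lower in dermal cells and none higher, beside 3.13% and 2.73% of all 3740 genes. It was efna5a, an ephrin of the A type, with 5.18 and 1.07 CPM in adult dermal cells and 7.47 and 3.53 CPM in juvenile dermal cells, against 17.4 and 19.5 CPM in the adult suture and meningeal cells and 49.7 and 19.5 CPM in the juvenile ones. The groups did not overlap (log2 difference -2.38, SE 0.46, adjusted p = 0.0108). The call was lost without juvenile 1 (adjusted p = 0.0615) and without the library block (adjusted p = 0.126), and without adult 2 efna5a did not pass the filter. Without juvenile 2, 1 of 19 genes was higher and 2 were lower, beside 113 and 152 of all 4589. ephb3a (1.19, adjusted p = 0.0512), efna1b (1.45, adjusted p = 0.0764) and efnb1 (0.16, adjusted p = 0.848) did not pass.

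The secreted semaphorins sema3ab and sema3c were too low for that filter and had less in dermal cells. sema3ab had 0.576 and 4.27 CPM in adult dermal cells and 2.13 and 8.83 CPM in juvenile dermal cells, against 26.1 and 39.1 CPM in the adult suture and meningeal cells and 14.2 and 19.5 CPM in the juvenile ones. sema3c had 4.61 and 7.47 CPM in adult dermal cells and 4.27 and 1.77 CPM in juvenile dermal cells, against 46.3 and 30.1 CPM in the adult suture and meningeal cells and 7.11 and 6.51 CPM in the juvenile ones. Every library showed the same side for both genes. However, the juvenile suture and meningeal cells held only 140706 and 153488 UMIs, so their values rest on a few UMIs per gene. For sema3c both juvenile values there are the lowest that a detected gene can have at that depth. The juvenile side of sema3c therefore carries little weight. With no filter 5 of 66 members were called, beside 1.35% of 22281 genes higher and 0.853% lower: sema3ab (log2 difference -2.70, adjusted p = 6.7e-05), sema3c (-2.13, adjusted p = 0.0023) and efna5a lower, and efna1b and ephb3a higher.

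Transcription factors known from suture patterning were set beside these values. tcf12, in which changes cause coronal fusion in people, had 256 and 86.5 CPM in adult dermal cells and 177 and 366 CPM in juvenile dermal cells, against 37.7 and 64.6 CPM in the adult suture and meningeal cells and 71.1 and 241 CPM in the juvenile ones (log2 difference 1.38, adjusted p = 0.0397). twist2 was also higher in dermal cells (1.85, adjusted p = 0.00488). twist1a (277 CPM in dermal and 323 CPM in suture and meningeal cells) and twist1b (71.1 and 71.3 CPM) did not pass. twist1a, twist1b, tcf12 and efnb1 thus had UMIs in both kinds of cell.

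**Figure D4:**
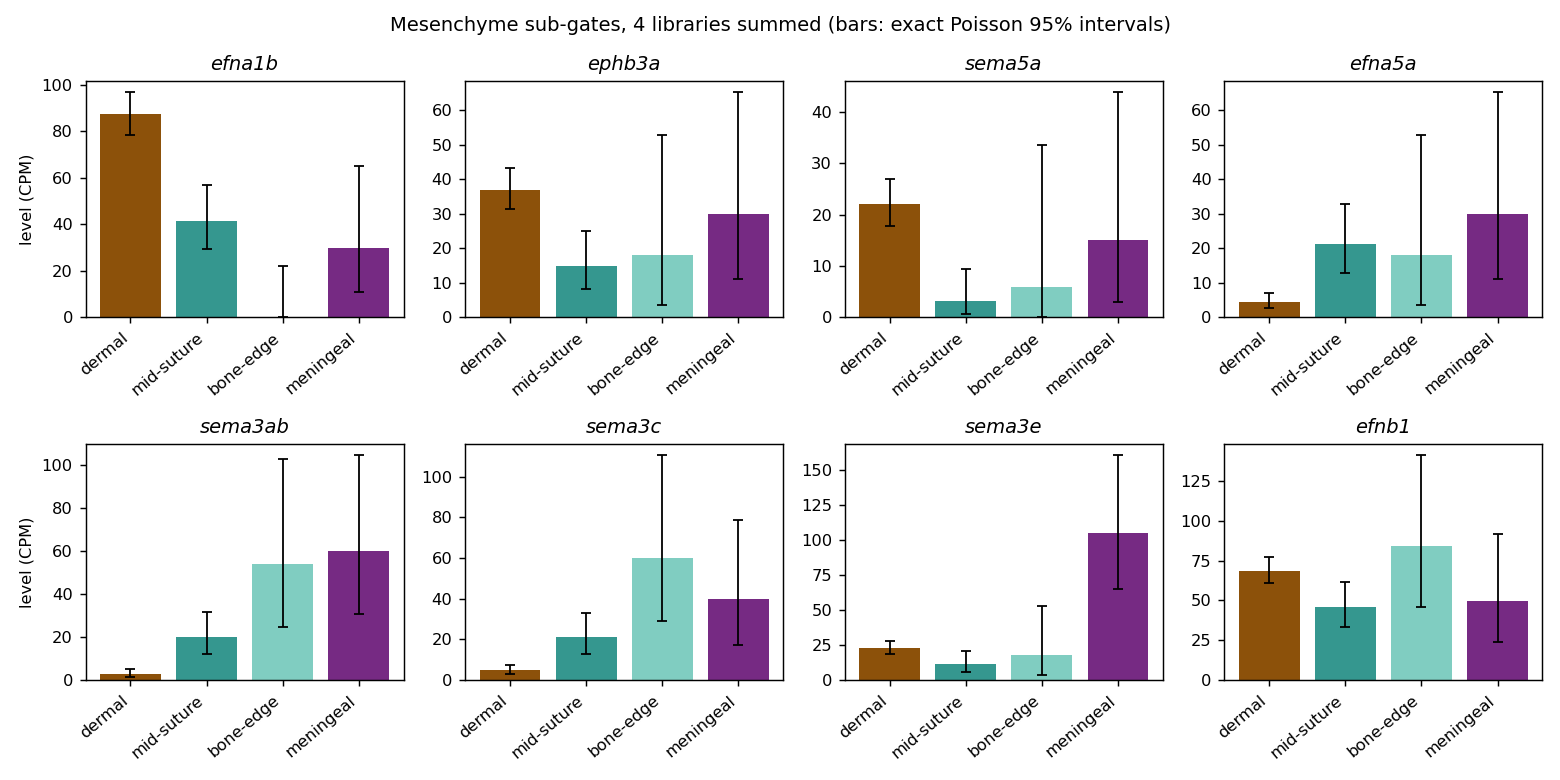
Level (CPM, 4 libraries summed) of 8 genes in the dermal, mid-suture, bone-edge and meningeal gates of mesenchyme, with exact Poisson 95% intervals for counting error. efna5a, sema3ab and sema3c are low in the dermal bar, efna1b is high in it, and the bone-edge bars carry wide intervals.

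Between stages, adult minus juvenile, 0 of 40 tested genes passed in mesenchyme (edgeR), beside 0.488% of all 8819 genes, with 3 of the 40 under an unadjusted p of 0.05 and 0 called by DESeq2. Of the 40, 18 were positive and 22 negative, with a median log2 difference of -0.15, against 0.01 over all genes. The adult libraries lay above both juvenile libraries for 13.04% of the 46 genes with at least 20 UMIs and below for 28.3%, beside 12.6% and 28.7% of all genes. With 2 libraries against 2, an exact permutation test of a single gene cannot go under p = 0.333.

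The 3 genes with the widest separation were secreted semaphorins. sema3b had 36.7 and 11.9 CPM in adult mesenchyme, against 5.26 and 7.36 CPM in juvenile mesenchyme (log2 difference 2.10, SE 0.62, adjusted p = 0.210). sema3c, with the values given above, had a log2 difference of 1.74 (SE 0.68, adjusted p = 0.360). sema3fb had 4.21 and 9.66 CPM in adult mesenchyme, against 19.1 and 34.0 CPM in juvenile mesenchyme (-1.56, SE 0.65, adjusted p = 0.395). These genes were chosen for adult values on 1 side of the juvenile values, and the adult libraries differed from each other by as much as 3 times. Without adult 2, which left adult 1 alone and assumes that it varies like the juveniles, sema3b (2.60, adjusted p = 0.000324) and sema3fb (-2.56, adjusted p = 0.00297) passed, as did ephb3 and sema5a, 4 of 43 members beside 9.89% of all genes. Without adult 1 sema3c passed (2.29, adjusted p = 0.00345), 1 of 42 members beside 6.17% of all genes. In the pair with the same ecad:YFP gate, adult 1 and juvenile 1, sema3b had 36.7 and 5.26 CPM, sema3c 11.9 and 7.89 CPM and sema3fb 4.21 and 19.1 CPM.

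**Figure D5:**
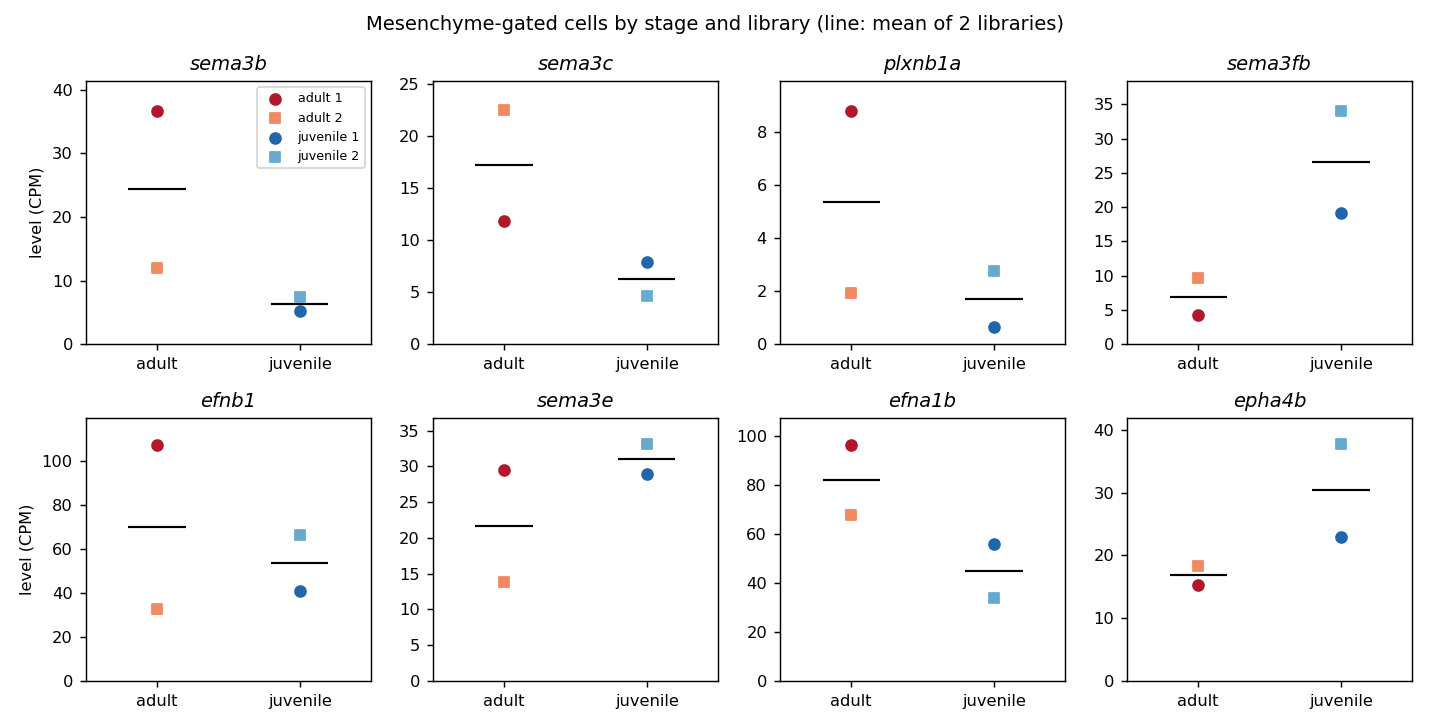
Level (CPM) in mesenchyme-gated cells of 8 genes by stage, 1 point per library and a line at the mean of 2 libraries. For sema3b, sema3c and efna1b both adult points lie above both juvenile points, for sema3fb and epha4b both lie below, and efnb1, sema3e and plxnb1a overlap or spread widely.

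In neurons 9 of 40 tested genes were positive and 31 negative, with a median log2 difference of -1.02, against -0.30 over all genes, and 7 were under an unadjusted p of 0.05. Of the 40, 1 passed, beside 2.53% of all genes. plxnb1a, a B-type plexin, had 149 and 0 CPM in adult neurons, against 16.5 and 13.2 CPM in juvenile neurons (log2 difference 3.08, SE 0.67, adjusted p = 0.000538). The adult value came from 32 UMIs in 53 cells of adult 1, and adult 2 with 14 cells had none. DESeq2 did not call it (adjusted p = 0.140), and neither did edgeR with any 1 library left out (adjusted p = 0.904 without juvenile 1, 0.768 without juvenile 2, 0.723 without adult 1 and 0.0879 without adult 2). In the other classes 0 of 2 endothelial, 0 of 3 skin and 0 of 4 immune genes passed, by edgeR and by DESeq2, beside 0%, 0% and 7.27% of all genes, and at an unadjusted p under 0.05 edgeR had 0, 0 and 1.

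In endothelial cells efna1a, with the values above, had a log2 difference of 0.98 (adjusted p = 0.551). In skin efna1a had 65.1 and 149 CPM in adults, against 0 and 40.1 CPM in juveniles (1.65, adjusted p = 0.887), and efna1b had a log2 difference of 0.47 (adjusted p = 0.990). In immune cells plxnc1 was at 45.1 and 37.0 CPM in adults, against 23.1 and 19.2 CPM in juveniles (1.02, adjusted p = 0.467). Whether a stage difference in mesenchyme departed from that in endothelial cells was tested for 30 genes, of which 0 passed (edgeR, 1 at an unadjusted p under 0.05, 0 by DESeq2), beside 0.129% of all genes.

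The partners of these proteins were followed through a list of 40 genes of co-receptors, signalling proteins and a sheddase, of which 37 were in the tables and 16 were tested. In neurons 9 were higher and 1 lower: the collapsin response mediators dpysl2b, dpysl3, dpysl5a and dpysl5b, the kinase fyna, the oxidase mical3a, the GTPase rnd1b, the scaffold grip1 and the co-receptor nrp1a were higher, and the GTPase rras was lower. Glia had 4 higher and 1 lower, mesenchyme 3 higher (rnd1b 2.03, rras 1.35 and mical3b 3.18 on the log2 scale), skin 2 and 2, endothelial cells 1 higher (rnd1b), osteoblasts 1 higher (kalrnb, 3.75) and immune cells 5 lower. Mural cells had none. Over all genes, 33.7% were called higher and 12.2% lower in neurons, 11.6% and 3.32% in glia, and 11.8% and 3.33% in skin. The shares called higher were 18.3% in mesenchyme, 7.94% in endothelial cells and 12.2% in osteoblasts, and 11.8% were lower in immune cells. The partner calls are from the first class fit alone, which is pulled down wherever a class has no UMI.

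Neuropilins, the co-receptors of most sema3 ligands, were found in mesenchyme, vessels and neurons. nrp1a had 18.0 CPM in pooled mesenchyme, 40.3 CPM in endothelial cells and 83.7 CPM in neurons. nrp2a had 14.2 CPM in mesenchyme and 27.6 CPM in osteoblasts, and nrp2b had 13.9 CPM in mesenchyme and 33.0 CPM in endothelial cells. Within mesenchyme, nrp2b stood at 9.34 CPM in dermal, 22.4 CPM in mid-suture, 60.2 CPM in bone-edge and 30.0 CPM in meningeal cells. The bone-edge and meningeal levels rest on 54 and 73 cells and few UMIs, and these differences were not tested.

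Over the 28 sums of library and class, the genes whose pattern was most like efnb1 were sema4ba (Pearson r = 0.67 of log2(CPM + 1)), plxna1a (0.61) and efna5a (0.59). For sema3e they were sema3bl (0.79), ephb4b (0.66) and sema3aa (0.58). These are descriptions over sums that share libraries and depth.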

How the data were processed

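Per the labels and file headers, the authors sequenced 10x Genomics libraries of adult and juvenile calvaria and deposited 1 filtered matrix of UMI counts (unit: count, not normalized) per library, made with Cell Ranger (3.1.0 in the file headers, 3.0.0 in the protocol) on GRCz11; their notes also name Seurat 4.1.1. No column belonged to another sample (0 columns). Genes, their lists and the marker gates were chosen with earlier results of these data known. Replicate numbers follow accession order. Kept cells had over 200 and under 2500 genes and under 25% mitochondrial UMIs (6 genes); doublets were not removed in the main analysis because the caller marked 7 cells in 1 library and 0 in the others, and an alternative dropped the 5% with the highest scores. No chondrocyte-gated cell (656) entered a class, and 11690 cells stayed ungated.

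Levels are UMIs per 1000000 UMIs of the same cells (CPM). For tests, counts were summed per library and class; sums under 10 cells were left out (osteoblasts of juvenile 2, mural cells of both juveniles, glia of adult 2, bone-edge cells of juvenile 2). edgeR 4.0.16 (quasi-likelihood, TMM, filterByExpr, Benjamini-Hochberg over all genes tested, threshold 0.05) in R 4.3.3 was used, with limma 3.58.1, scanpy 1.11.5, scipy 1.17.1 and numpy 2.4.6. Alternatives were DESeq2 1.42.0, library totals, no filter, stricter and looser gates, no replicate block, each library left out, and all barcodes. The contrasts of mesenchyme with single classes and of dermal cells were added after seeing the data. Scripts were tested on simulated counts. Named for each class were up to 4 genes of largest log2 difference past the threshold with at least 20 UMIs and the highest level in at least 3 libraries; for stages, genes past the threshold or the 3 of largest difference with separated libraries; and, always, the efnb1, efnb2, epha4, ephb2, ephb3, ephb4, plxna, plxnd1 and sema3 copies. Other genes were named after their values were seen. Poisson and Clopper-Pearson 95% intervals cover counting error only. Genes with near-identical copies may share reads, and no source states how these were assigned. No sequences or coordinates were used, since the reference tables given are of another assembly.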

Additional observations from a re-analysis of the deposited data

Results flagged for a closer look

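Cells gated as chondrocytes, which no comparison used, held sema3d at 13.9 CPM and sema5bb at 15.9 CPM, above the pooled level in each of the 8 classes. sema3d had 8.37 CPM in juvenile 1 and 19.4 CPM in juvenile 2 (55 UMIs in all), beside 8.04 CPM in mesenchyme. sema5bb had 12.03 CPM in juvenile 1 and 19.9 CPM in juvenile 2 (63 UMIs in all), beside 6.96 CPM in mesenchyme and 10.2 CPM in mural cells, the last on 2 UMIs. Of the 656 chondrocyte-gated cells, 7 came from adults, so nothing can be said about that stage.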

How the results depend on the processing

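No paired analysis was possible because the labels give the libraries no replicate numbers, so the stage comparisons have no block. Where library was a block (classes, dermal cells), fits with no replicate block kept the count of genes higher in every class within 1.5 times. The dermal count of 1 became 0 of 16, beside 11 genes higher and 11 lower of 3740. The count of 4 against osteoblasts became 2 of 29, beside 175 genes higher of 7447. The count of genes higher in mesenchyme, 13, became 8 of 29 with DESeq2, beside 987 of all 7447 genes. With no filter it became 37 of 70, beside 3692 of 30231 genes. With no filter the count in immune cells, 0, became 4 of 70, beside 3282 of 30231 genes. In neurons 12 became 23 of 70, beside 4820 genes. Against neurons 8 became 25, with 18 higher and 7 lower, beside 3464 and 3417 genes. Against osteoblasts 4 became 7, all higher, beside 551 genes. In dermal cells 1 became 5 of 66, beside 300 genes higher and 190 lower of 22281. Between stages in mesenchyme 0 became 1 of 69, beside 282 genes higher and 218 lower of 24126. Between stages in neurons 1 became 0 of 69, beside 0 of 26845 genes. It also became 0 with DESeq2. Against the other cells summed, glia went to 5, immune cells to 3, mural cells to 0, osteoblasts to 0 and skin to 2. With at least 4 markers the osteoblast count, 3, became 5 of 29, beside 1024 of all 7994 genes. The count against osteoblasts became 7 of 29, with 6 higher and 1 lower, beside 503 and 265 genes. In that alternative the sub-gates followed another rule, within the mesenchyme cells of the main gate. A cell needed at least 1 marker of a sub-gate and none of any other. The dermal count under that rule became 0 of 4 tested, beside 43 genes higher and 35 lower of 1508.

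Leaving out each library gave 7 to 9 genes in endothelial cells, 3 to 9 in glia, 0 to 2 in immune cells, 11 to 24 in mesenchyme, 0 to 1 in mural cells, 8 to 18 in neurons, 1 to 3 in osteoblasts, 3 to 6 in skin, 0 to 3 in dermal cells, 9 to 15, 3 to 18 and 1 to 6 for mesenchyme against endothelial cells, neurons and osteoblasts, and 0 to 4 and 0 to 1 between stages in mesenchyme and neurons. The stage difference of plxnb1a in neurons reversed to -8.09 (adjusted p = 0.723) without adult 1, where adult 2 has no UMI, and was 2.64 to 3.50 without each other library. The fits of classes and of mesenchyme against single classes tested 23 genes of these families without juvenile 2 and 49 without adult 2. Over all genes they tested 5515 and 12422. In neurons 8 and 18 were called higher in the same fits, beside 1415 and 3943 of all genes. In endothelial cells 9 and 7 were, beside 456 and 456. The ranges above therefore do not separate a change in these families from a change in the genes tested. Of the recomputed values, 188 counts stayed within 1.5 times and 43 did not. Of the single-gene values, 489 kept their call or size, 80 no longer passed, 4 newly passed and 1 reversed. The 6 values recomputed in cells thinned to 1000 UMIs all moved. Causes were not tested. Alternatives on all deposited barcodes, dermal cells and single-class contrasts were chosen after seeing the data.

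Depth limits these results in mural, endothelial and bone-edge cells, juvenile suture and meningeal cells, adult neurons, glia of adult 1 and skin of juvenile 1. In these a gene can rest on a few UMIs. The ecad:YFP gate occurs at both stages, but the gates of adult 2 and juvenile 2 occur in 1 library each and cannot be told apart from it.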
